A study of Mus musculus with 18 samples.

Results

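The RAB small GTPases were followed through mouse eosinophils that met apoptotic cells under Type 1 or Type 2 stimuli. All protein-coding genes whose mouse symbol is Rab followed by a number were taken, which gave 59 of the 54446 genes in the table. No expression value was used to choose them. RNA sequencing covered 18 libraries in 6 groups of 3, all of C57BL/6 eosinophils cultured with apoptotic cells (ACs). In the Type 1 experiment the eosinophils met ACs with no stimulus, with E. coli (E. coli + ACs), with interferon-γ (IFN-γ + ACs) or with the pair (IFN-γ + E. coli + ACs), and in the IL-4 experiment they met ACs alone or IL-4 + ACs. The study describes the pair as IFN-γ first and E. coli after, and the interval is not given in the sources used here. The cells came from the peritoneal cavity of Il5Tg mice, in which T cells overproduce the eosinophil growth factor interleukin-5. The ACs were thymocytes of wild-type mice 4 to 6 weeks old, made apoptotic with dexamethasone and added at 5 per eosinophil for 18 h, and the eosinophils were purified again through the surface lectin Siglec-F before RNA was extracted. The study calls its replicates biological, and for one comparison of ACs with unstimulated eosinophils states that each sample came from its own mouse. Doses of the stimuli and ages of the Il5Tg mice are not given in the sources used here.

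RAB proteins are molecular switches of membrane traffic. Each sits on its own set of membranes when bound to GTP, recruits effectors that move, tether or fuse vesicles there, and is returned to the cytosol by a carrier protein after GTP hydrolysis. In a phagocyte that has engulfed a dead cell, RABs of early endosomes are replaced on the phagosome by RABs of late endosomes as it matures towards a lysosome. In eosinophils and other granulocytes a further set of RABs carries and docks secretory granules at the plasma membrane.

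The values are normalized counts, which are reads counted at the 3′ ends of transcripts and scaled by the authors for library depth. A library held 779421 to 7782072 reads (median 4461121). In the IL-4 experiment both replicate 3 libraries were shallow, with 779421 reads for ACs and 849705 for IL-4 + ACs, so that 1 read there stood for normalized counts of 5.36 and 5.14. Of the 59 RAB genes, 3 (Rab17, Rab40b and Rab42) had no read in any library. A mean normalized count of at least 10 was required for testing. This was met by 39 RAB genes in the Type 1 experiment and by 40 in the IL-4 experiment, or 41 in either. The 18 not tested were the 3 above with Rab3a, Rab3b, Rab3c, Rab4b, Rab9b, Rab13, Rab15, Rab19, Rab25, Rab26, Rab27b, Rab30, Rab36, Rab38 and Rab39b, and the highest mean among them was 8.88 for Rab13.

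Markers of other cells moved with the stimuli and are given once for all results. The summed normalized count of 10 eosinophil markers was 16335 to 17755 with ACs, 17549 to 18799 with E. coli + ACs, 10004 to 11253 under IFN-γ + ACs and 14440 to 17104 when both stimuli were given. The 11 peritoneal macrophage markers, all detected in every group, summed to 18997 to 24970, 11051 to 14467, 28329 to 35805 and 11897 to 13031 in the same order. In the IL-4 experiment the eosinophil list ran from 21204 to 23805 with ACs and from 23952 to 26586 with IL-4 + ACs, and the macrophage list from 22873 to 37508 and from 19084 to 31199. The 15 thymocyte markers, a sign of leftover ACs, summed to 158 to 222 with ACs, 220 to 291 with E. coli + ACs, 92.3 to 160 with IFN-γ + ACs and 93.8 to 161 with both, and Thy1 was lower in the last pair. In the IL-4 experiment the thymocyte markers summed to 64.3 to 103 with ACs and 80.1 to 92.5 with IL-4 + ACs. Rag2 was at 0 throughout the ACs groups of each experiment, Rag1 with E. coli + ACs, and Rag1 and Dntt with both Type 1 stimuli. The 7 neutrophil markers summed to 51.6 to 78.3 with ACs, 287 to 392 with E. coli + ACs, 65.3 to 140 with IFN-γ + ACs and 204 to 254 with both. Of the 2 tested there, Cxcr2 was higher with E. coli + ACs, Ly6g with IFN-γ + ACs, and each of them with both stimuli. The granule markers Mpo and Elane were at 0 in all 3 stimulated groups. In the IL-4 experiment the 7 neutrophil markers summed to 43.6 to 75.1 with ACs and 113 to 162 with IL-4 + ACs, without overlap. The 5 mast cell markers summed to 5.64 to 20.3 with ACs, 20.2 to 36 with E. coli + ACs, 26.7 to 66.5 with IFN-γ + ACs and 35.6 to 63.5 with both, and to 24.9 to 29.3 with the ACs of the IL-4 experiment against 9.85 to 13.7 with IL-4 + ACs. The 5 B cell markers summed to 40.7 to 51.4, 51.9 to 89.9, 13.2 to 34.9 and 17.1 to 55 in the order of the Type 1 groups above, and to 12 to 37.5 with ACs and 32.1 to 46.3 with IL-4 + ACs. In bulk RNA, fewer cells of a type and less RNA per cell cannot be told apart, and the part of other cells in the RAB results was not tested.

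Across the 4 comparisons, 19 of the 41 tested RAB transcripts passed the threshold at least once. The matching share of all genes was not counted, and shares for each comparison are given below. A transcript was past the threshold, and is called higher or lower, at a Benjamini-Hochberg adjusted p under 0.05 in the limma fit over all genes if it also changed 1.5-fold or more. The 3 Type 1 comparisons share their ACs libraries, and those with IL-4 have ACs libraries of their own. With E. coli + ACs, 3 of 39 RAB transcripts were higher and 2 lower, or 7.69% and 5.13%, beside 5.05% and 5.25% of all genes tested. IFN-γ + ACs gave 8 higher and 5 lower, or 20.5% and 12.8%, beside 11.4% and 9.96%. IFN-γ + E. coli + ACs gave 11 higher and 7 lower, or 28.2% and 17.9%, beside 14.7% and 17.2%. With IL-4 + ACs, 1 of 40 was lower and 0 were higher, beside 0.347% and 0.74% of all genes, with the same counts by edgeR and DESeq2. Of the 40, 2 had an unadjusted p under 0.05, Rab7b and Rab44, both lower. The median log2 fold change of the RAB transcripts tested was 0.13, 0.16, 0.31 and -0.05 in the 4 comparisons, beside 0.00, 0.00, -0.05 and -0.01 for all genes.

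The higher share of calls with both Type 1 stimuli fell under a common upper quartile scaling. By TMM scaling, edgeR and DESeq2 the RAB calls with both stimuli stayed at 11 higher and 7 lower. When the libraries were rescaled to a common upper quartile, the median of all genes in that comparison moved by -0.14 and the RAB calls became 7 higher and 7 lower, beside 11.4% and 21.6% of all genes. The higher share of the RAB calls was then 50% instead of 61.1%, and that of all genes 34.4% instead of 46.1%. Under the upper quartile scaling IFN-γ + ACs gave 6 higher and 5 lower RAB calls, beside 9.5% and 12.3% of all genes. Their higher share was 54.5% instead of 61.5%, and that of all genes 43.7% instead of 53.4%. E. coli + ACs gave 2 higher and 2 lower RABs, beside 4.51% and 5.72% of all genes, a higher share of 50% instead of 60% for the RABs and of 44.1% instead of 49% for all genes.

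**Figure D1:**
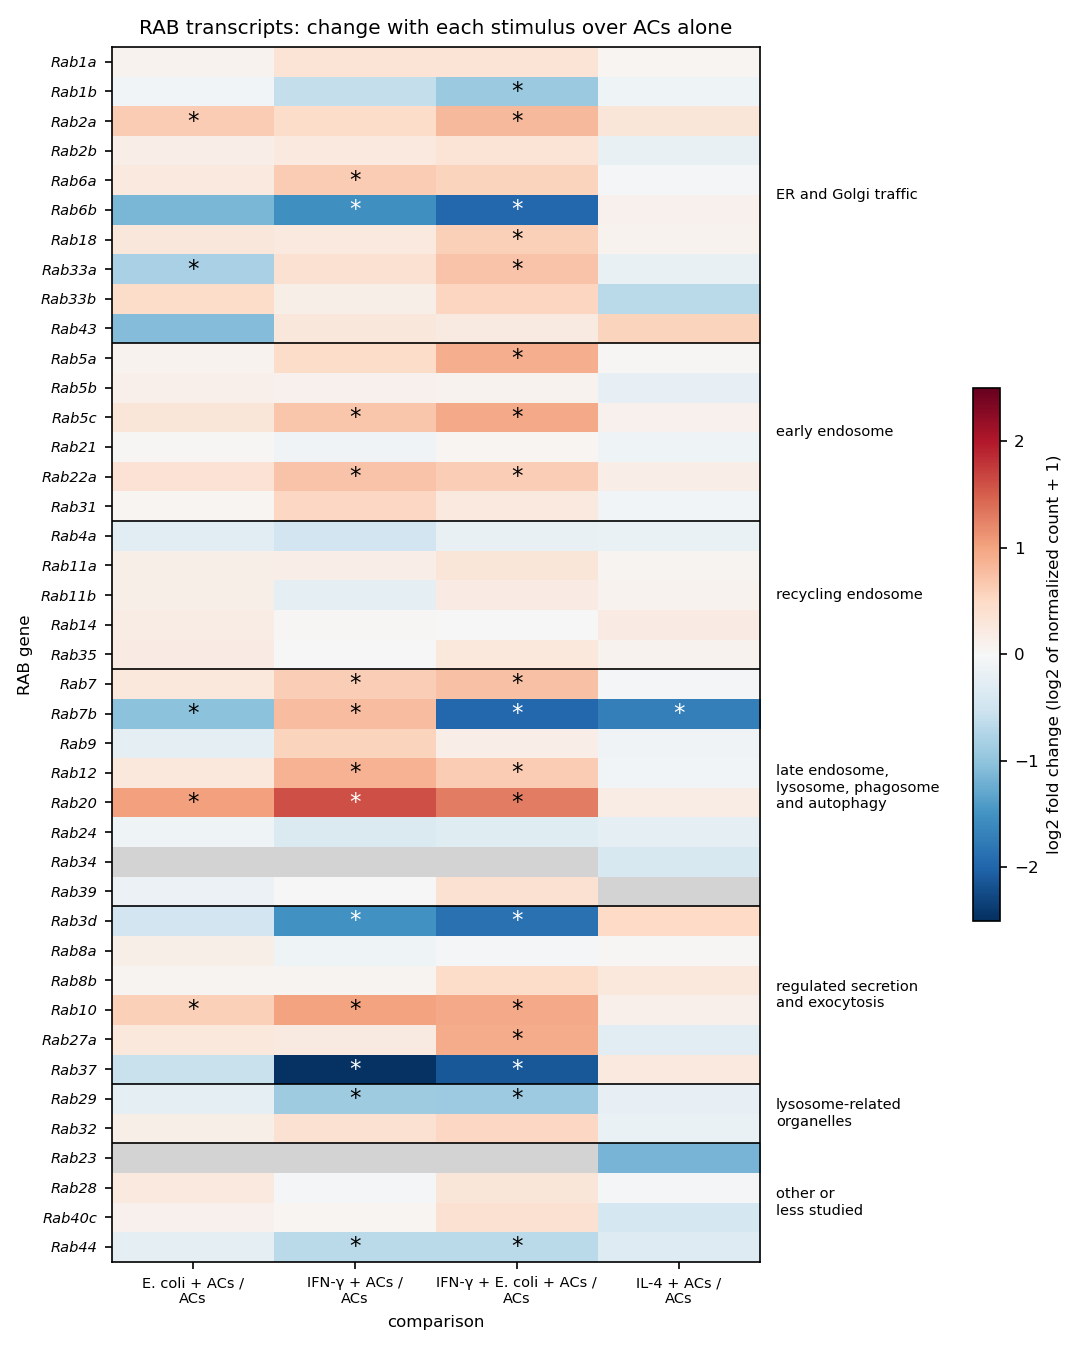
Log2 fold changes of the 41 tested RAB transcripts (rows, grouped by role) in each stimulus over the ACs libraries of its own experiment (columns); red is higher, blue is lower, grey was not tested, and a star marks a transcript past the threshold. Stars are frequent in the IFN-γ columns, and the IL-4 column holds a single one, for Rab7b.

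**Figure D2:**
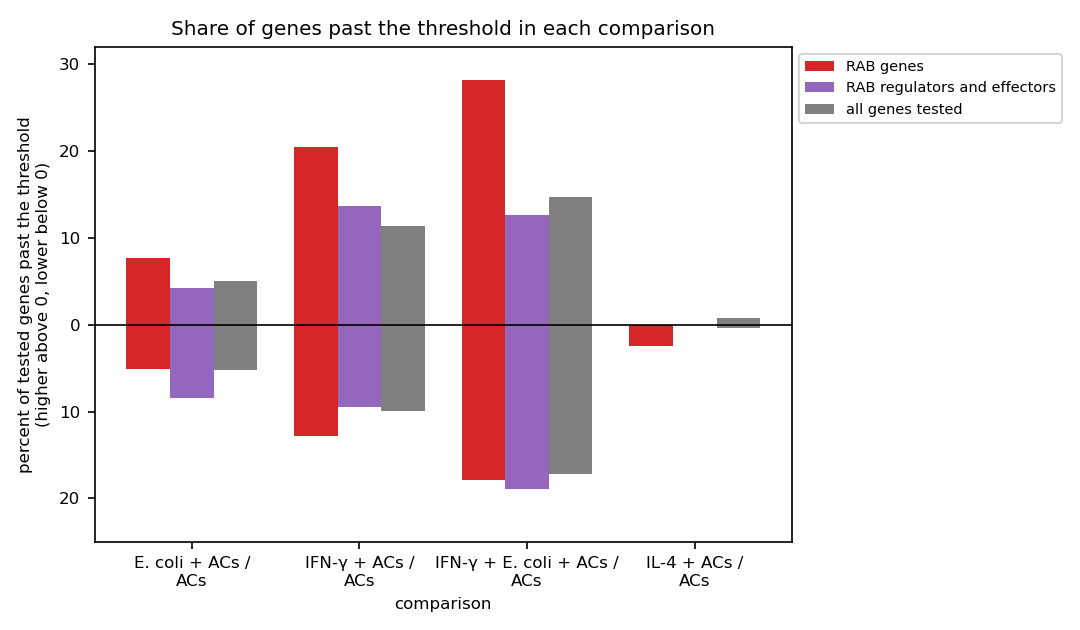
Percent of tested genes past the threshold in each comparison (higher drawn upward, lower drawn downward) for the RAB genes, for 119 RAB regulators and effectors and for all genes tested. The RAB bars reach 28.2% upward and 17.9% downward under IFN-γ + E. coli + ACs, where all genes reach 14.7% and 17.2%.

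RABs of early endosomes, the first stop of engulfed cargo, moved in 1 direction where they moved. None of the 6 tested was past the threshold with E. coli + ACs, by limma or by edgeR and DESeq2 on the recovered reads, and 2 of 6 had an unadjusted p under 0.05 by each tool. With IFN-γ + ACs 2 of 6 were higher and with IFN-γ + E. coli + ACs 3 of 6, or 33.3% and 50%, beside 11.4% and 14.7% of all genes, and the median log2 fold change of the 6 was 0.48 and 0.44. Rab5c, which drives homotypic fusion of early endosomes, stood at 661, 596 and 648 with ACs, 704, 869 and 786 under E. coli + ACs, 1038, 1020.1 and 1018 under IFN-γ + ACs and 1351, 1099 and 1244 under IFN-γ + E. coli + ACs. The 6 libraries with IFN-γ lay above the 6 without it. The log2 fold change was 0.69 (SE 0.12, adjusted p = 0.00016) with IFN-γ + ACs and 0.95 (SE 0.12, adjusted p = 2.7e-06) with both stimuli.

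Rab5a, a close relative with the same fusion role, had 520.4, 572 and 471 with ACs, 567, 625 and 473 under E. coli + ACs, 706, 762 and 663 under IFN-γ + ACs and 1046, 902 and 991 with both. The libraries with both stimuli were above all others, and the E. coli libraries overlapped ACs. The log2 fold change with both was 0.91 (SE 0.13, adjusted p = 1.5e-05). Rab22a, which acts between early endosomes and recycling tubules, had 242, 219.6 and 214 with ACs, 285, 271 and 311 under E. coli + ACs, 361, 349.6 and 404 under IFN-γ + ACs and 366, 342 and 335 with both. Its stimulated libraries did not overlap ACs in any of the 3 groups. It was higher with IFN-γ + ACs (log2 0.72, SE 0.13, adjusted p = 0.00032) and with both (0.62, SE 0.13, adjusted p = 0.00077), the latter falling to 0.48 and below 1.5-fold under upper quartile scaling. Of the other early endosome members, Rab21 averaged 506 ± 54.1 with ACs and 526 ± 53.8 with both (SD, n = 3), and Rab5b 168 ± 17.4 and 181 ± 43.8. Neither passed the threshold in any comparison. With IL-4 + ACs the 6 lay between -0.20 and 0.16 on the log2 scale, and none passed by limma, edgeR or DESeq2, nor had an unadjusted p under 0.05.

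The late endosome, lysosome, phagosome and autophagy group held Rab20, higher with every Type 1 stimulus, and Rab7b, which was past the threshold in all 4 comparisons in differing directions. Of its 7 tested members, 1 was higher and 1 lower with E. coli + ACs, 4 higher with IFN-γ + ACs, and 3 higher and 1 lower with both. The higher shares were 14.3%, 57.1% and 42.9% of these 7 genes, beside 5.05%, 11.4% and 14.7% of all genes, and the lower shares with E. coli + ACs and with both were 14.3% each, beside 5.25% and 17.2%. Rab20 (chr8:11453518-11478710, GRCm38, minus strand), which is recruited to phagosomes and promotes their maturation, stood at 148, 99.5 and 122 with ACs. It reached 243, 238 and 267 under E. coli + ACs, 384, 402 and 332 under IFN-γ + ACs and 288, 269 and 339 with both. The ACs libraries were the lowest 3, the IFN-γ libraries lay above the E. coli ones, and those with both overlapped the IFN-γ libraries. The log2 fold changes were 1.03, 1.61 and 1.28 (SE 0.16 each), with adjusted p = 0.00017, 3.3e-07 and 3.7e-06. In the IL-4 experiment it stood at 221, 222 and 166 with ACs and 182, 220.2 and 303 with IL-4 + ACs, which overlapped.

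Rab7, which brings late endosomes and phagosomes to fusion with lysosomes, stood at 732, 728 and 696 with ACs, 892, 847 and 861 under E. coli + ACs, 1109, 1136 and 1077 under IFN-γ + ACs and 1340.0, 1073 and 1191 with both. Its ACs libraries were the lowest and its E. coli libraries next, with no overlap between ACs and any stimulus. The change was 0.62 with IFN-γ + ACs (log2, SE 0.11, adjusted p = 0.00022) and 0.73 with both (SE 0.11, adjusted p = 2.4e-05). The IFN-γ value was 0.53, below 1.5-fold, under upper quartile scaling. Rab12, which takes part in lysosomal breakdown of the transferrin receptor and in autophagy, stood at 115, 131 and 103 with ACs, 154, 158 and 110.0 under E. coli + ACs, 189, 217 and 229.8 under IFN-γ + ACs and 189.6, 178 and 174 with both. The 6 libraries with IFN-γ lay above all ACs and E. coli libraries. It was higher with IFN-γ + ACs (log2 0.86, SE 0.17, adjusted p = 0.0009) and with both (0.64, SE 0.17, adjusted p = 0.0067). The latter was 0.50 under upper quartile scaling and 0.55 without ACs replicate 3, each short of 1.5-fold.

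Rab7b (chr1:131688695-131715439, GRCm38, plus strand), which acts in transport from endosomes to the trans-Golgi network and limits Toll-like receptor signals in macrophages, rose with IFN-γ + ACs and fell with each of the other 3 stimuli. It stood at 400.1, 330.3 and 294 with ACs, 233, 112 and 179 under E. coli + ACs, 492, 657 and 597 under IFN-γ + ACs and 64.2, 84.3 and 119 with both. In the IL-4 experiment it stood at 217, 216 and 434 with ACs and 96.8, 65.3 and 92.5 with IL-4 + ACs. The IFN-γ libraries were above ACs and the libraries of the other 3 stimuli below their own ACs, with no overlap in any comparison. The log2 fold changes were -1.02 with E. coli + ACs (SE 0.24, adjusted p = 0.0068), 0.77 with IFN-γ + ACs (SE 0.24, adjusted p = 0.022), -1.96 with both (SE 0.24, adjusted p = 2.7e-06) and -1.70 with IL-4 + ACs (SE 0.29, adjusted p = 0.025). The summed macrophage markers were higher with IFN-γ + ACs and lower with E. coli + ACs and with both, and with IL-4 + ACs their range overlapped that of ACs. Of the 11, 4 were higher and 1 lower (Vsig4) with IFN-γ + ACs, 5 lower with E. coli + ACs, 6 lower and 3 higher (Adgre1, Marco and Mertk) with both, and 2 lower (Marco and Vsig4) with IL-4 + ACs.

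The call on Rab7b with both stimuli was kept under all 23 alternatives, while each of its other 3 calls against ACs was lost without some single library. With E. coli + ACs it was -0.73 without E. coli + ACs replicate 2 (adjusted p = 0.053). With IFN-γ + ACs it was 0.75 and 0.67 without ACs replicate 2 or 3 and 0.68 and 0.74 without IFN-γ + ACs replicate 2 or 3, with adjusted p from 0.056 to 0.096. With IL-4 + ACs it was -1.80, -1.52 and -1.77 without IL-4 + ACs replicate 1, 2 or 3 and -1.86 without ACs replicate 1, with adjusted p from 0.053 to 0.075, and -1.43 (adjusted p = 0.00086) without both shallow libraries. Of the group's other members, Rab24, which works in late steps of autophagy, averaged 777 ± 100 with ACs, 608 ± 90.3 under IFN-γ + ACs and 639 ± 151 with both (SD, n = 3). Rab9, which returns cargo from late endosomes to the Golgi, averaged 78.3 ± 6.23, 115 ± 10.9 and 88 ± 11.1. Its change with IFN-γ + ACs was 0.55 (log2, adjusted p = 0.037), short of 1.5-fold. None of Rab24, Rab9 and Rab39 passed the threshold, and Rab34 was tested with IL-4 + ACs alone, where it did not pass.

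**Figure D3:**
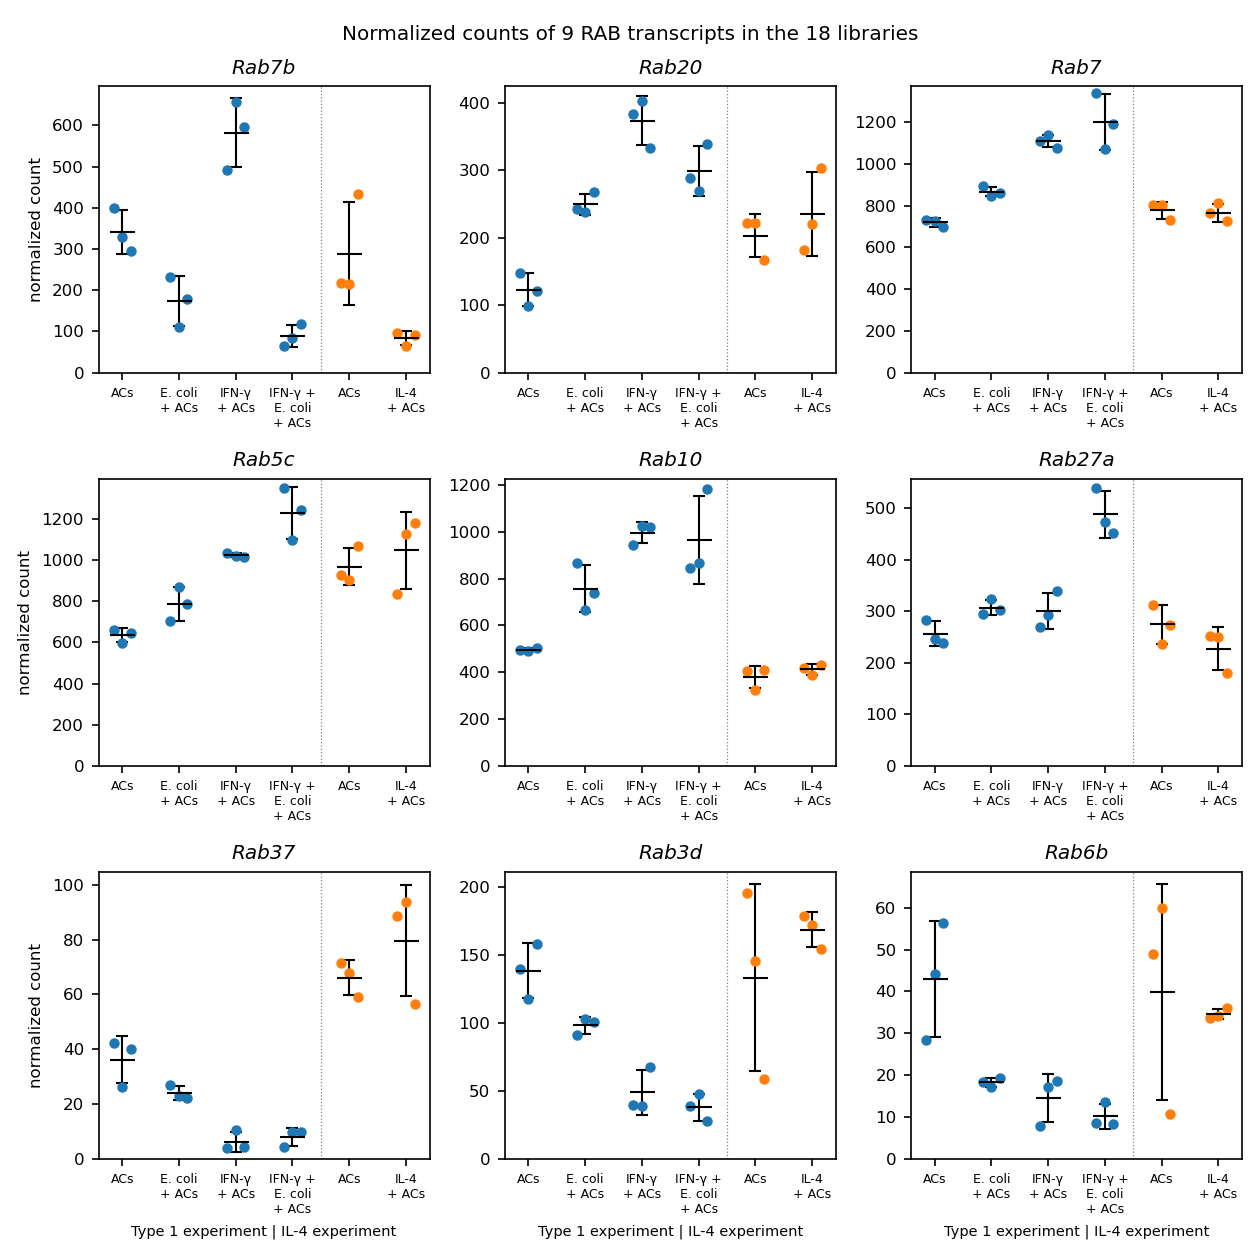
Normalized counts (y axes, from 0) of 9 RAB transcripts in each of the 18 libraries, by group (x axes); points are libraries, horizontal marks the means of 3 and bars their SD, and the dotted line separates the Type 1 experiment (blue) from the IL-4 experiment (orange). Rab20, Rab7, Rab5c and Rab10 rise with IFN-γ, Rab37, Rab3d and Rab6b fall, Rab27a is high with both Type 1 stimuli, and Rab7b rises with IFN-γ alone and is low with both stimuli and with IL-4.

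RABs of regulated secretion and exocytosis split in opposite directions. Of 6 tested, 1 was higher with E. coli + ACs, 1 higher and 2 lower with IFN-γ + ACs, and 2 higher and 2 lower with both. The higher shares were 16.7%, 16.7% and 33.3% of 6 genes, beside 5.05%, 11.4% and 14.7% of all genes, and the lower shares with IFN-γ + ACs and with both were 33.3% each, beside 9.96% and 17.2%. Rab10, which carries Toll-like receptor 4 and glucose transporters to the cell surface, stood at 497, 489.9 and 502 with ACs, 866, 668 and 739.8 under E. coli + ACs, 946, 1024 and 1022 under IFN-γ + ACs and 847, 866 and 1184 with both. All 9 stimulated libraries were above the 3 with ACs. The log2 fold changes were 0.60, 1.00 and 0.94 (SE 0.13 each), with adjusted p = 0.0048, 1.3e-05 and 1.8e-05. The first lay at the 1.5-fold limit and was 0.57 under upper quartile scaling and 0.50 without E. coli + ACs replicate 1.

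Rab27a, which docks secretory granules at the plasma membrane and is mutated in Griscelli syndrome, stood at 284, 247 and 237 with ACs, 296, 323 and 303 under E. coli + ACs, 269, 293 and 339 under IFN-γ + ACs and 539, 473 and 453 with both. The libraries with both stimuli lay above the other 9. The log2 fold change with both was 0.93 (SE 0.14, adjusted p = 2.3e-05). The E. coli + ACs libraries also lay above ACs without overlap, but did not pass the threshold (log2 0.26, adjusted p = 0.23). Those with IFN-γ + ACs overlapped ACs.

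Rab37 (chr11:115091431-115162236, GRCm38, plus strand), a RAB of secretory granules in mast cells and macrophages, stood at 42.3, 26.3 and 40 with ACs and 26.8, 22.9 and 22 under E. coli + ACs. It was at 3.96, 10.3 and 4.1 under IFN-γ + ACs and 4.28, 9.77 and 9.66 with both. The 6 libraries with IFN-γ lay below the 6 without it. The fall was -2.47 on the log2 scale with IFN-γ + ACs (SE 0.46, adjusted p = 0.00041) and -2.11 with both (SE 0.46, adjusted p = 0.0011). These levels rest on few reads, 3, 9 and 2 under IFN-γ + ACs and 3, 8 and 7 under both, against 52, 28 and 49 with ACs. Rab37 lies across Cd300lf on the opposite strand, which averaged 1553 ± 32.7 with ACs and 1874 ± 163 with IFN-γ + ACs (SD, n = 3). Whether the counting used strand is not given in the sources used here. If it did not, reads from where the pair overlap cannot be told apart. Rab10 and Rab6a likewise lie across a gene on the opposite strand, Rab10os and Mrpl48, which averaged 79 and 51.3 over all libraries.

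Rab3d (chr9:21907491-21918192, GRCm38, minus strand), which governs granule maturation and release in exocrine and mast cells, stood at 139.9, 117 and 158 with ACs and 91.2, 103 and 100.3 under E. coli + ACs. With IFN-γ + ACs it was at 39.6, 39 and 67.7, and with both at 38.5, 47.6 and 27.6. No stimulated library reached the ACs range. It was lower with IFN-γ + ACs (log2 -1.52, SE 0.25, adjusted p = 0.00013) and with both (-1.86, SE 0.25, adjusted p = 9.0e-06), and with E. coli + ACs it had -0.48 (adjusted p = 0.24). The summed eosinophil markers were also lower with IFN-γ + ACs, where 4 of 7 tested were lower (Siglecf, Il5ra, Ear6 and Alox15), and 2 of 7 with both (Siglecf and Ear2). The mast cell markers summed to 26.7 to 66.5 with IFN-γ + ACs against 5.64 to 20.3 with ACs. Of these 5, only Cpa3 was tested, and it was higher with IFN-γ + ACs and with both. The part of either cell type in the fall of Rab3d was not tested. Rab8a averaged 467 ± 47.2 with ACs and 458 ± 48.6 with both, and Rab8b 442 ± 31.1 and 610 ± 108 (SD, n = 3). Neither passed the threshold, Rab8b with both being short of 1.5-fold (log2 0.45, adjusted p = 0.026). Among the secretion RABs not tested was Rab27b.

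The upstream sequences shown are of Rab20, which rose with IFN-γ, and of Rab3d, which fell. Both were chosen for size of change, as the members with the largest changes whose windows hold bases before the annotated start. The sequences are from RefSeq (GRCm38.p6), read on the gene's own strand and end 1 base before the GENCODE start. Capitals mark the ISRE core described next. The Rab20 stretch is chr8:11478711-11478890 (minus strand) and the Rab3d stretch chr9:21918193-21918433 (minus strand).
Rab20: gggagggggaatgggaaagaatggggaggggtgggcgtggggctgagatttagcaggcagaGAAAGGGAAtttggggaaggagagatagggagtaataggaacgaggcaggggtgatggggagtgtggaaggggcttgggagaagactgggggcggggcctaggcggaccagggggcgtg
Rab3d: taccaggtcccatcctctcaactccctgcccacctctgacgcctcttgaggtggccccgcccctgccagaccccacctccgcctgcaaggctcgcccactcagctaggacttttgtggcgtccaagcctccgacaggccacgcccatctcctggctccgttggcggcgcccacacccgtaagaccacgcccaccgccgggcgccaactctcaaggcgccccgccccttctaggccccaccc
Promoter windows of 300 bases, 250 before to 50 after the RefSeq start, were at hand for 48 of the 59 RAB genes and for 14 of the 19 past the threshold. Those without one were Rab2a, Rab7b, Rab18, Rab37 and Rab44. The site bound by STAT6, TTC and GAA separated by 4 bases, was searched on both strands, as were those that follow, and lay in 6.95% of all 32851 windows, in 3 of the 48 RAB genes and in 0 of the 14. The core of the interferon-stimulated response element, GAAANNGAA, lay in 8.56% of windows and in 3 of 48, of which Rab20 was past the threshold, with its copy 189 bases before the RefSeq start. The E-box CACGTG, the heart of the element through which TFEB drives lysosomal genes, lay in 7.15% of windows and in 6 of 48, among them Rab20, Rab27a and Rab5a. The Rab20 copy lies 46 bases before the RefSeq start, past the end of the stretch shown. These matches are a description of the letters and say nothing of binding.

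RABs of the endoplasmic reticulum (ER) and Golgi moved in both directions. Of 10 tested, 1 was higher and 1 lower under E. coli + ACs, likewise under IFN-γ + ACs, and 3 were higher and 2 lower with both. These shares were 10% each, beside 5.05% and 5.25% of all genes under E. coli + ACs and 11.4% and 9.96% under IFN-γ + ACs, and those with both were 30% and 20%, beside 14.7% and 17.2%. Rab2a, which serves ER-to-Golgi transport and lysosome fusion, stood at 813, 745 and 676 with ACs, 1089, 1089.8 and 1284 under E. coli + ACs, 954, 1136 and 993 under IFN-γ + ACs and 1234, 1356 and 1347 with both. All 9 stimulated libraries lay above ACs. It was higher with E. coli + ACs (log2 0.63, SE 0.12, adjusted p = 0.00093) and with both (0.82, SE 0.12, adjusted p = 1.7e-05), the former dropping below 1.5-fold without ACs replicate 3 (0.56) or E. coli + ACs replicate 3 (0.55).

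Rab6a and its paralog Rab6b, which move vesicles out of and back to the Golgi, went opposite ways with IFN-γ + ACs. Rab6a stood at 303, 316 and 281 with ACs, 338, 352 and 369 under E. coli + ACs, 493, 408 and 509 under IFN-γ + ACs and 462, 373 and 508 with both. Rab6b stood at 28.5, 44.1 and 56.3, 18.4, 17.2 and 19.4, 7.91, 17.2 and 18.5 and 8.55, 13.4 and 8.28 in the same groups. No stimulated library of either overlapped ACs. Rab6a was higher with IFN-γ + ACs (log2 0.64, SE 0.14, adjusted p = 0.0018), with 0.55 under upper quartile scaling and 0.58 without IFN-γ + ACs replicate 3. Rab6b was lower with IFN-γ + ACs (-1.53, SE 0.40, adjusted p = 0.0081) and with both (-1.96, SE 0.40, adjusted p = 0.00076). Without ACs replicate 3 the former was -1.31 (adjusted p = 0.061). With E. coli + ACs Rab6b had -1.14 (adjusted p = 0.072 by limma) and was past the threshold by edgeR and DESeq2. The Rab6b levels rest on few reads, 6, 15 and 9 under IFN-γ + ACs and 6, 11 and 6 under both, against 35, 47 and 69 with ACs.

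Rab33a, a Golgi RAB with a part in vesicle export and autophagy, stood at 88.6, 80.7 and 79.9 with ACs, 40.2, 50.7 and 50.1 under E. coli + ACs, 116, 131 and 86.2 under IFN-γ + ACs and 188, 103 and 132 with both. The E. coli libraries were the lowest 3 and those with both stimuli were above ACs. It was lower with E. coli + ACs (log2 -0.81, SE 0.23, adjusted p = 0.022) and higher with both (0.71, SE 0.23, adjusted p = 0.019). Leaving out 1 library ended the first call for ACs replicate 1 (-0.77), 2 (-0.83) or 3 (-0.84) or E. coli + ACs replicate 1 (-0.71), and the second for ACs replicate 2 or 3 (0.69 each) or IFN-γ + E. coli + ACs replicate 1 (0.49). The second was 0.58 under upper quartile scaling. Rab18, a RAB of the ER and lipid droplets, stood at 216, 222 and 230.0 with ACs and 375, 275 and 378 with both, without overlap. It stood at 250, 261 and 308 under E. coli + ACs and 285, 251 and 259 under IFN-γ + ACs. These also lay above ACs, and neither passed the threshold. The change with both of 0.60 (log2, SE 0.15, adjusted p = 0.0034) sat at the 1.5-fold limit, and was 0.47 under upper quartile scaling, 0.58 without ACs replicate 1 and 0.53 without IFN-γ + E. coli + ACs replicate 1 or 3.

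Rab1b, which drives transport from the ER to the Golgi, stood at 194, 148 and 205 with ACs and 121, 122 and 56.6 with both stimuli, with the stimulated libraries all lower. It stood at 156, 164 and 199 under E. coli + ACs and 177, 150 and 63.6 under IFN-γ + ACs, each overlapping ACs. The change with both was -0.93 (log2, SE 0.32, adjusted p = 0.027). It was -0.88 without ACs replicate 1, -0.84 without ACs replicate 3 and -0.56 without IFN-γ + E. coli + ACs replicate 3, with adjusted p from 0.078 to 0.16. Its paralog Rab1a averaged 1097 ± 77.3 with ACs and 1396 ± 165 with both (SD, n = 3). With a change of 0.34 (log2, adjusted p = 0.021), short of 1.5-fold, Rab1a was not past the threshold. Rab33b averaged 59.6 ± 0.652 and 87.7 ± 16. By the study's account of its read counting, uniquely mapped reads alone were counted, which would leave out reads shared by paralogs. The RAB pseudogenes Rab7-ps1, Rab5a-ps, Rab11b-ps2 and Rab9b-ps1 were at 0 in every library.

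RABs of the recycling endosome, which return receptors to the surface, showed 0 calls among 5 tested in all 4 comparisons. This held by limma, edgeR and DESeq2, and an unadjusted p under 0.05 was met by 0 of 5 in each comparison other than IFN-γ + E. coli + ACs, where 1 of 5 met it by each tool. Of all genes, 14.7% were higher and 17.2% lower with both stimuli, the largest shares of the 4 comparisons. With only 5 genes tested, 0 calls do not set this group apart from all genes. Rab11a averaged 700 ± 59.6 with ACs, 770 ± 29.6 under E. coli + ACs, 782 ± 47.7 under IFN-γ + ACs and 869 ± 73.5 with both (SD, n = 3). Its change with both was 0.31 (log2, adjusted p = 0.037), short of 1.5-fold. Rab14 averaged 1240 ± 57.8, 1412 ± 158, 1265 ± 173 and 1270 ± 395. The 5 log2 fold changes, of Rab4a, Rab11a, Rab11b, Rab14 and Rab35, lay between -0.47 and 0.31 over the 4 comparisons.

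Rab29, which acts at the trans-Golgi network and stressed lysosomes, stood at 515, 479.6 and 431 with ACs, 400.2, 378 and 446 under E. coli + ACs, 223, 279.7 and 271 under IFN-γ + ACs and 238, 277 and 244 with both. The 6 libraries with IFN-γ lay below the 6 without it. The change was -0.88 (log2, SE 0.14, adjusted p = 7.4e-05) with IFN-γ + ACs and -0.91 (SE 0.14, adjusted p = 3.5e-05) with both. Rab32, a RAB of lysosome-related organelles, averaged 266 ± 10.3 with ACs and 383 ± 44.4 with both (SD, n = 3), without overlap. Its change with both of 0.52 (log2, adjusted p = 0.0039) was short of 1.5-fold, so it was not past the threshold. Rab44, a large RAB with calcium-binding motifs known from mast cells and osteoclasts, stood at 1105, 1044 and 1195 with ACs, 1007, 902 and 942 under E. coli + ACs, 807, 586 and 716 under IFN-γ + ACs and 894, 701 and 528 with both. The stimulated libraries lay below ACs in every group. It was lower with IFN-γ + ACs (log2 -0.67, SE 0.16, adjusted p = 0.0035) and with both (-0.68, SE 0.16, adjusted p = 0.0021), and each call ended without replicate 2 of IFN-γ + ACs (-0.55) or replicate 3 of IFN-γ + E. coli + ACs (-0.49), in turn. With IL-4 + ACs it stood at 1607, 1605 and 1393 against 1781, 2194 and 1844 with ACs, without overlap, and did not pass the threshold (log2 -0.33, adjusted p = 0.45). Rab40c averaged 110 ± 5.01 with ACs and 145 ± 18 with both, and Rab28 50.2 ± 3.09 and 62.6 ± 6.51, and neither passed.

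The interaction of IFN-γ and E. coli, which asks if their joint effect differs from the sum of the single effects on the log2 scale, was past the threshold for 4 of 39 RAB transcripts. The joint effect was above the sum for 1 and below it for 3, or 2.56% and 7.69%, beside 3.16% and 4.28% of all genes. Rab20 rose by 1.03 and 1.61 on the log2 scale with the single stimuli and by 1.28 with both, an interaction of -1.35 (SE 0.23, adjusted p = 0.0011). For Rab7b the single effects of -1.02 and 0.77 stood beside -1.96 with both, an interaction of -1.71 (SE 0.34, adjusted p = 0.0038). Both held without any single library. Rab10 had -0.66 (SE 0.19, adjusted p = 0.039) and Rab33a 1.14 (SE 0.32, adjusted p = 0.038), and each was lost without any 1 of 9 of the 12 libraries. Rab10 kept its call only without E. coli + ACs replicate 2, IFN-γ + ACs replicate 1 or IFN-γ + E. coli + ACs replicate 3, with values of -0.68 to -0.56 in the 9 others. Rab33a kept it only without IFN-γ + ACs replicate 2 or IFN-γ + E. coli + ACs replicate 2 or 3, with 0.91 to 1.19 in the 9 others.

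IL-4, the Type 2 stimulus, and IFN-γ were compared by the difference of their effects, each over the ACs of its own experiment. Of 39 RAB transcripts, 3 had a higher and 7 a lower IL-4 effect, or 7.69% and 17.9%, beside 6.17% and 8.09% of all genes. The median difference was -0.30 for the RAB transcripts and 0.00 for all genes. Rab37 stood at 71.4, 67.7 and 59 with ACs and 88.6, 93.8 and 56.5 with IL-4 + ACs, which overlapped, and the difference of effects was 2.70 (log2, SE 0.54, adjusted p = 0.0014). Rab3d stood at 196, 146 and 59 and 179, 172 and 154, with a difference of 2.02 (SE 0.45, adjusted p = 0.0037), and Rab29 at 417, 435 and 574 and 377, 405 and 442, with 0.68 (SE 0.20, adjusted p = 0.029).

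The lower ones were Rab7b, Rab20, Rab12, Rab10, Rab6a, Rab7 and Rab5c. Rab7b had the greatest difference of the 7, -2.46 (log2, SE 0.40, adjusted p = 0.00015), followed by Rab20 with -1.42 (SE 0.26, adjusted p = 0.00072). The other 5 lay from -0.92 to -0.59. Rab10 stood at 404, 323 and 407 with ACs and 417, 387 and 432 with IL-4 + ACs, and Rab5c at 931, 904 and 1072 and 835, 1128 and 1182, both with overlap. In the same order, Rab12 stood at 265, 306 and 177 and 222, 269 and 211, with overlap. Rab6a stood at 326, 297 and 359 and 316, 327 and 303, and Rab7 at 802, 801 and 729 and 764, 810 and 725, likewise. Rab5c (-0.59, adjusted p = 0.036) was the least firm, and was not past the threshold by edgeR (-0.56) or DESeq2 (-0.57), which called Rab22a in its place, nor without any 1 of 8 libraries. Those were ACs of the Type 1 experiment replicates 1 to 3 (-0.62, -0.55 and -0.61), IFN-γ + ACs replicates 1 to 3 (-0.58, -0.59 and -0.60), ACs of the IL-4 experiment replicate 3 (-0.52) and IL-4 + ACs replicate 1 (-0.43). Rab12 (-0.92, adjusted p = 0.026) was lost, at -0.92 to -0.76, without replicate 1 or 3 of the Type 1 ACs, 2 or 3 of IFN-γ + ACs, 1 or 2 of the IL-4 experiment's ACs or 1 or 3 of IL-4 + ACs. Rab29 was lost, at 0.57 to 0.68, without replicate 1 or 2 of the Type 1 ACs, 1 of IFN-γ + ACs, 1 or 2 of the IL-4 experiment's ACs or 2 or 3 of IL-4 + ACs. Rab6a (-0.69, adjusted p = 0.017) was lost without replicate 3 of the Type 1 ACs (-0.65) and without both shallow libraries (-0.59).

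**Figure D4:**
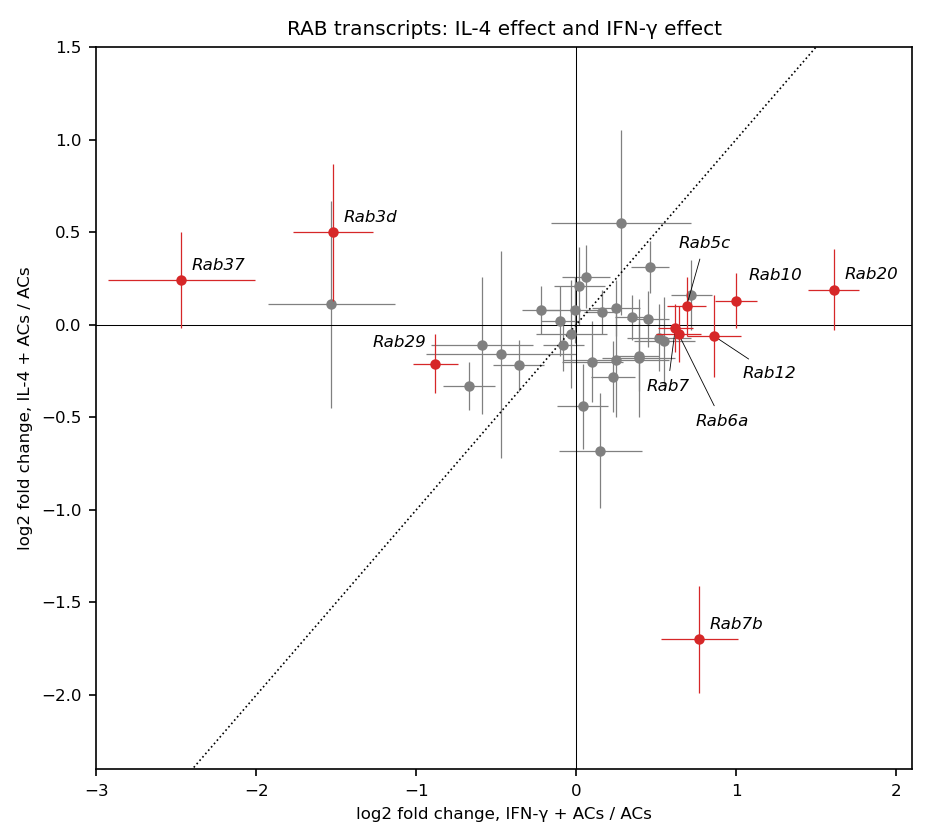
Log2 fold change of each RAB transcript with IFN-γ + ACs (x axis) and with IL-4 + ACs (y axis), each over its own ACs, with bars of 1 SE; red points are past the threshold for the difference between the effects, and the dotted line marks equal effects. Along the x axis the points spread from -2.47 for Rab37 to 1.61 for Rab20, while most lie near 0 on the y axis apart from Rab7b at -1.70.

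The proteins that load, switch and read the RABs were followed as a list of 119 genes, of which 95 were tested in the Type 1 experiment. E. coli + ACs gave 4 higher and 8 lower, IFN-γ + ACs 13 and 9, and with both 12 and 18, beside the shares of all genes given above. These are 4.21% and 8.42%, 13.7% and 9.47%, and 12.6% and 18.9% of those tested. With IL-4 + ACs 0 of 96 were past the threshold by limma, edgeR or DESeq2, and 6, 8 and 5 had an unadjusted p under 0.05. Exchange factors, which load GTP, counted 5 higher and 6 lower of 31 with both stimuli, or 16.1% and 19.4%, beside 14.7% and 17.2% of all genes. Activating proteins, which trigger GTP hydrolysis, counted 4 and 5 of 30, or 13.3% and 16.7%. Effectors counted 3 and 7 of 28, or 10.7% and 25%. The carriers and prenylation factors counted 0 of 6 by limma, edgeR and DESeq2, with 4, 3 and 3 of them at an unadjusted p under 0.05.

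Sytl1, whose product binds Rab27a and tethers granules, had the greatest fall among the regulators and effectors in all 3 Type 1 comparisons. It stood at 503, 479.6 and 483 with ACs, 98, 154 and 178 under E. coli + ACs, 68.6, 51.6 and 59.5 under IFN-γ + ACs and 22.8, 52.5 and 24.8 with both. All stimulated libraries were far below ACs, and the 4 groups did not overlap apart from a shared stretch between IFN-γ + ACs and both. The log2 fold changes were -1.81, -3.02 and -3.93 (SE 0.27 each), with adjusted p = 0.00011, 7.5e-08 and 1.3e-09. Its partner Rab27a was higher with both, as given above. Rabgef1, the exchange factor for the RABs of the early endosome, stood at 46.4, 45 and 22 with ACs, 65.3, 109.5 and 54.5 under E. coli + ACs, 127, 132 and 115 under IFN-γ + ACs and 109.8, 118 and 101 with both. The stimulated libraries were all above ACs. The log2 fold changes were 1.01, 1.76 and 1.58 (SE 0.28 each), with adjusted p = 0.02, 8.5e-05 and 0.00017.

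Tbc1d9, a member of the activating protein family, stood at 12.2, 20.6 and 8.97 with ACs, 53.6, 52.3 and 32.5 under E. coli + ACs, 119, 94 and 88.2 under IFN-γ + ACs and 77, 59.9 and 89.7 with both. The log2 fold changes were 1.70, 2.83 and 2.41 (SE 0.30 each), with adjusted p = 0.00067, 7.9e-07 and 3.8e-06. Its stimulated libraries stood above ACs in all 3 groups. Rin2, an exchange factor for early endosome RABs, stood at 822, 885 and 605 with ACs, 256, 237 and 194 under E. coli + ACs, 689, 861 and 694 under IFN-γ + ACs and 189.6, 176 and 286 with both. It was low where E. coli was present, with -1.74 (adjusted p = 2.3e-06) and -1.84 (adjusted p = 2.3e-07), and overlapped ACs with IFN-γ alone (-0.03, adjusted p = 0.92). Rab11fip5, an effector of recycling RABs, had -1.20 (adjusted p = 0.00041) with E. coli + ACs, -0.09 (adjusted p = 0.8) with IFN-γ + ACs and -1.14 (adjusted p = 0.0002) with both.

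The remaining regulators chosen for size were each among the largest in 1 comparison. Tbc1d22b (0.82) and Rilpl2 (0.73) rose with E. coli + ACs, Rufy3 (1.56) rose with IFN-γ + ACs, and Ric1, part of the exchange factor for Rab6, rose with both (1.49), all on the log2 scale. Mical1 (-0.93) and Tbc1d4 (-0.90), the latter an activating protein for Rab10, were lower with IFN-γ + ACs, and Ocrl, an inositol phosphatase that binds RABs, with both (-1.31). The interaction of IFN-γ and E. coli was past the threshold for 7 of 95, 4 above the sum of the single effects and 3 below (4.21% and 3.16%, beside 3.16% and 4.28% of all genes), among the latter Tbc1d9 with -2.11 (SE 0.43, adjusted p = 0.0047). The difference between the IL-4 and IFN-γ effects was past it for 12 of 97, 6 in each direction (6.19% each, beside 6.17% higher and 8.09% lower of all genes), with Sytl1 at 2.70 (SE 0.36, adjusted p = 1.8e-05) and Tbc1d9 at -3.87 (SE 0.56, adjusted p = 4.8e-05).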

How the data were processed

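Libraries were made by CEL-Seq2, which reads the 3′ ends of transcripts. The deposited signal per gene is the authors' read count divided by a size factor of each library, as DESeq2 gives it. The submitters' processing notes name FastQC 0.11.5, Trim Galore, cutadapt 1.10, TopHat2 2.1.0, Bowtie2 2.2.6, HTSeq 0.6.1, DESeq2 1.26.0 and GRCm38. The study's methods give the same aligner and counter, with uniquely mapped reads alone counted to genes in union mode. In another section they describe trimming with fastp and alignment with STAR, and the DESeq2 versions they give differ from that in the notes. Whether strand was used is not given in the sources used here. Values were whole multiples of 1 read for 100.0% of values (tolerance 0.1 read), so whole reads were recovered for edgeR 4.0.16 and DESeq2 1.42.0, run as alternatives. Past the threshold edgeR on these reads called 533 genes higher and 694 lower with E. coli + ACs, 1129 and 1098 under IFN-γ + ACs, 1533 and 1744 under both and 127 and 85 with IL-4 + ACs. Reads per library ranged from 779421 to 7782072, and fewer than 3 reads cannot be told from 0.

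Gene identifiers were matched to GENCODE symbols for 54409 of 54446 genes. The main test was limma 3.58.1 in R 4.3.3 (lmFit, eBayes with a trend) on log2(normalized count + 1) for genes with a mean of at least 10, so folds of low genes are understated, with Benjamini-Hochberg adjustment over all genes tested. It used the 12 Type 1 libraries, the 6 of the IL-4 experiment, or all 18 for the difference of the IL-4 and IFN-γ effects. Past the threshold means an adjusted p under 0.05 and at least 1.5-fold. Replicates carry numbers, but the correlations of same-numbered libraries' deviations from their group means were -0.09 to 0.09, so no pairing was assumed. The labels do not say that replicates came from separate animals, which the study states for 1 comparison, and p-values measure the spread between these libraries. The fits were tested on simulated data. A further motif search is not reported here.

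RABs past the threshold in any of the 4 comparisons against ACs are described by library in the Type 1 groups, and some also in the IL-4 groups. The others are counted, with the 2 best measured of each role named. Of the regulators, the 3 largest rises and falls in each comparison are named, if the higher group averaged 50 or more. The members, roles and lists were chosen with earlier results of these data known.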

Additional observations from a re-analysis of the deposited data

Results flagged for a closer look

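Effects that differed between groups by a test of the difference itself are listed here. The interaction of IFN-γ and E. coli was -1.71 for Rab7b, -1.35 for Rab20, -0.66 for Rab10 and 1.14 for Rab33a on the log2 scale, by limma on the 12 Type 1 libraries. Rab20 and Rab7b kept this call under all 23 alternatives, while Rab10 and Rab33a each kept it under 12 of 23. For Rab33a, the effect of E. coli was -0.81 without IFN-γ, and the libraries with both stimuli averaged 141 against 111 with IFN-γ + ACs.

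The IL-4 effect minus the IFN-γ effect was -2.46 for Rab7b, -1.42 for Rab20, -0.92 for Rab12, -0.87 for Rab10, -0.69 for Rab6a, -0.64 for Rab7 and -0.59 for Rab5c. It was 0.68 for Rab29, 2.02 for Rab3d and 2.70 for Rab37. Among these, Rab7b, Rab20, Rab10, Rab3d and Rab37 kept the call under every alternative run. The 2 experiments have ACs libraries of their own, and the experiment and the cytokine cannot be told apart beyond what those ACs libraries absorb.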

How the results depend on the processing

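The 51 RAB calls over the 6 comparisons were recomputed under a pseudocount of 5, no filter on low values, a mean of at least 50, a common upper quartile, TMM scaling, array weights, edgeR, DESeq2, a joint fit of all 18 libraries, no fold threshold, the replicate block, each library left out and both shallow libraries left out. Of these calls 28 were kept under every alternative that gave a value and 23 were lost under at least 1, and 0 changed direction. The lower calls with E. coli + ACs numbered 4 with array weights and 1 with all 18 libraries, and 1 to 3 with 1 library left out. With IFN-γ + ACs, 13 instead of 8 were higher without the fold threshold, and 3 instead of 5 were lower at a mean of at least 50, which leaves 33 RABs tested. With both stimuli 7 instead of 11 were higher under the common upper quartile. With IL-4 + ACs the single lower call became 0 to 1 with 1 library left out. The interaction call above the sum became 0 without the filter, 0 with all 18 libraries and 0 to 1 with 1 library left out. The lower IL-4 effects numbered 12 instead of 7 with array weights and 4 to 7 with 1 library left out, the 4 without ACs of the Type 1 experiment replicate 3, and 8 without both shallow libraries. The cause was not tested other than where fewer genes or libraries enter. With the replicate block the counts did not move, with 8 higher and 5 lower with IFN-γ + ACs, and no RAB call changed. Depth limits Rab37 and Rab6b, at 2 to 9 and 6 to 15 reads per library with IFN-γ + ACs. It also limits both shallow libraries, where 3 reads stand for normalized counts of 15.4 and 16.1. Over all genes, the IL-4 + ACs calls were 79 higher and 37 lower by limma, 127 and 85 by edgeR and 128 and 81 by DESeq2, and the interaction above the sum was called for 321 genes by limma and 485 by DESeq2.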

Other observations

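Several RABs differed in level between the ACs libraries of the 2 experiments, which carry the same label. Rab33a averaged 83.1 ± 4.82 among the Type 1 libraries and 278 ± 114 among those of the IL-4 experiment (SD, n = 3), Rab24 777 ± 100 and 1630 ± 112, and Rab12 116 ± 14.4 and 249 ± 66, each without overlap. Rab20, at 123 ± 24.3 and 203 ± 31.9, and Rab37, at 36.2 ± 8.65 and 66 ± 6.4, also did not overlap. Rab2a (745 ± 68.6 and 743 ± 45.5) and Rab29 (475 ± 41.8 and 475 ± 85.8) overlapped. These RABs were picked after their values were seen, the difference was not tested, and the 2 experiments were deposited in 1 table whose batches are not described in the sources used here.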
